A study of Mus musculus with 4 samples.

Results

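The insulin-like growth factor (IGF) genes described here are Igf1, its receptor Igf1r, the secreted binding proteins Igfbp2, Igfbp3, Igfbp4, Igfbp5 and Igfbp7, and the mRNA-binding proteins Igf2bp1, Igf2bp2 and Igf2bp3. They are 10 of the 24421 genes in the count tables and were taken by gene symbol. They were selected on the data, after the higher level of the growth factor gene Igf2 in Day4 had been seen in the same contrast, so the differences between states below are a description and carry no test. The study sequenced RNA of the mouse R1 embryonic stem cell (ESC) line before and after differentiation induced by retinoic acid (RA), and 4 Illumina TruSeq libraries were analysed, 2 of each state. According to the methods, Undiff cells were maintained in serum medium with leukaemia inhibitory factor, whereas the labels call them embryoid bodies. Day4 embryoid bodies were made from R1 cells without that factor, grown for 4 days and treated for 4 more days with RA, given as 2 µM in the methods and as 2 mM in a label. The replicates were grown and treated separately, from 1 cell line. The study's scheme gives 4 days of growth for Undiff, and Day4 cells were cultured for longer. RA, the removal of leukaemia inhibitory factor, the culture as embryoid bodies and the time in culture therefore cannot be told apart.

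IGF1 and IGF2 bind the receptor tyrosine kinase IGF1R, which signals through insulin receptor substrates to PI3K, AKT and mTOR. IGF binding proteins hold the ligands outside the cell and limit or prolong their access to the receptor. IGFBP7 binds IGFs only weakly. The IGF2 mRNA-binding proteins are cytoplasmic RNA-binding proteins, named after the Igf2 mRNA, that set the stability, translation and localization of many transcripts, and they are abundant in embryonic cells.

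Depth ranged from 32099074 to 47730944 counts on genes per library, and 3 counts were taken as the floor of detection. ESC markers were present in Undiff and fell in Day4 for 10 of 10 genes (edgeR), from a summed 4899 and 4952 CPM (counts scaled to a common library total) to 30.5 and 24.4. Of 12 fibroblast and mesenchyme markers 9 were higher and 2 lower in Day4, of 12 endoderm markers 9 were higher and 2 lower, of 8 endothelial markers 6 were higher and 2 lower, and of 10 neural markers 3 were higher and 4 lower. Over all 19891 genes tested, 22.2% were higher and 20.6% lower. These are bulk RNA libraries, in which fewer cells of a type and less RNA per cell cannot be told apart.

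The 3 mRNA-binding protein genes shared a sequence feature that was not used to choose them. The microRNA let-7 pairs with mRNAs through its seed, bases 2 to 8, and 9 of the 10 mature mouse let-7 names matched in RefSeq (GRCm38.p6) have the same seed. It is shown in capitals in let-7a.
mmu-let-7a-5p: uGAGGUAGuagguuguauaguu
The 3′ UTR of each of Igf2bp1, Igf2bp2 and Igf2bp3 held at least 1 match to the seed followed by an A, here called an 8-base match. These 5 sites are shown, with the 8 matching bases in capitals, because they lie in all 3 genes of the group, whose levels differed between the states in opposite directions.
Igf2bp1, chr11:95961774-95961796 (−): tgcgaagtaaaCTACCTCAaggt
Igf2bp1, chr11:95959353-95959375 (−): agtgctattaaCTACCTCAgccc
Igf2bp1, chr11:95958759-95958781 (−): aaatggatgaaCTACCTCAgtcc
Igf2bp2, chr16:22059469-22059491 (−): acaaataaaagCTACCTCAggtg
Igf2bp3, chr6:49086783-49086805 (−): tttttactcaaCTACCTCAggta
The coordinates are those of GRCm38, and each site lies within 1 exon of the annotated 3′ UTR (GENCODE vM21). Igf2bp1 held a further 7-base match, so that its 6337-base 3′ UTR had 4 sites. Among 726 genes whose 3′ UTR was within 25% of that length, 0.275% had as many. Of 19450 genes with a 3′ UTR, 9.13% held a match to the seed and 3.12% an 8-base match. Among genes with a 3′ UTR within 25% of the length, the share with an 8-base match was 12.3% for Igf2bp1. It was 3.64% for Igf2bp2 and 4.12% for Igf2bp3.

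The ligand and receptor also held 8-base matches, and the binding proteins did not. Igf1 had 1 match in 6308 bases, which 31.9% of 737 genes of similar length also had. Igf1r had 2 matches in 7267 bases, 1 of them of 8 bases, and 9.07% of 507 genes of similar length had as many. Igfbp5 had a single 7-base match, and no match was found in Igfbp2, Igfbp3, Igfbp4 or Igfbp7, whose 3′ UTRs were between 232 and 2813 bases long. Such a match describes the sequence and does not show that the miRNA binds there, and the level of mature let-7 was not analysed here.

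**Figure D1:**
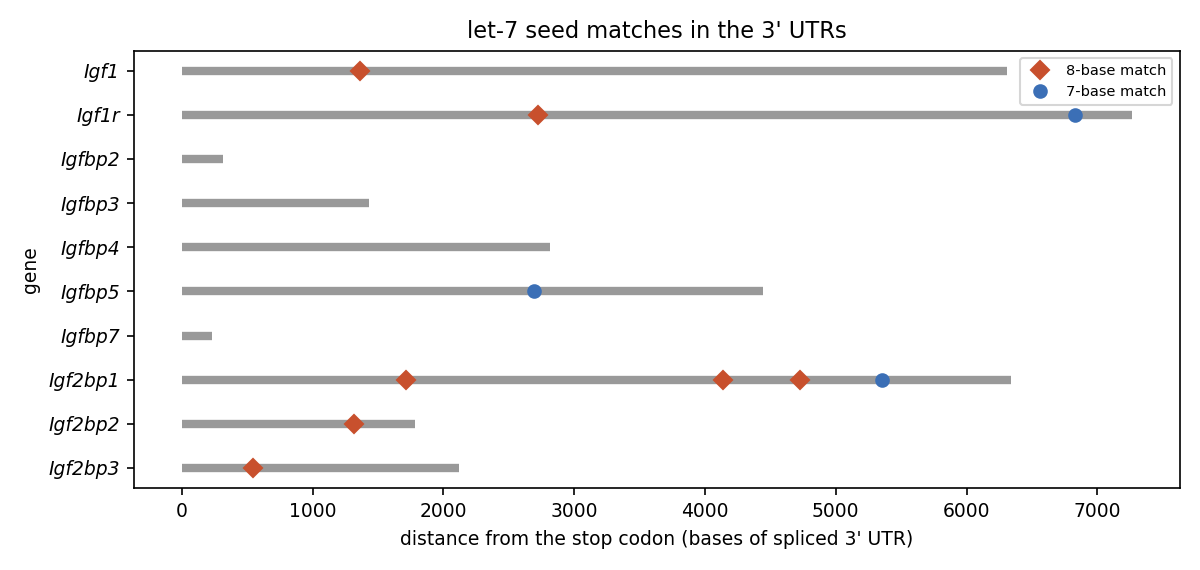
Matches to the let-7 seed along the annotated 3′ UTR of each gene, as distance from the stop codon in bases. Diamonds are 8-base and circles 7-base matches, and Igf2bp1 carries 4 of the 10 matches, while Igfbp2, Igfbp3, Igfbp4 and Igfbp7 carry none.

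Among the ligand and receptor genes, Igf1 was near absent in Undiff and Igf1r was at a moderate level in both states. Igf1, a growth factor secreted by many mesenchymal cells, had 14 and 11 counts in the Undiff libraries and 1372 and 1980 in Day4. Its normalized counts, scaled to a common library size, were 14.6 and 13.2 in Undiff and 1433 and 1520 in Day4. All 4 libraries were above the floor, and the Day4 mean was 106.4-fold the Undiff mean (log2 fold change 6.72, SE 0.14). Igf1r, which encodes the receptor for both ligands, had normalized counts of 2166 and 2109 in Undiff and 2726 and 2970 in Day4. The Day4 libraries were above the Undiff libraries without overlap, and the difference was small, with a log2 fold change of 0.42 (SE 0.05). It was below the absolute log2 fold change of 1 that defined a differentially expressed gene (DEG), which also had to average 5 or more normalized counts and have an adjusted p-value of 0.05 or less.

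The binding proteins differed in opposite directions, with Igfbp2 lower in Day4 and the other 4 higher. Igfbp2, the main binding protein transcript of Undiff, had normalized counts of 16516 and 13071 in Undiff and 1754 and 1835 in Day4. The Undiff mean was 8.24-fold the Day4 mean (log2 fold change −3.04, SE 0.09), and the lower Undiff library was far above both Day4 libraries. Igfbp5, whose protein binds extracellular matrix as well as IGFs, had normalized counts of 139 and 103 in Undiff and 139016 and 139288 in Day4. Its Day4 mean was 1152-fold the Undiff mean (log2 fold change 10.16, SE 0.07), the widest difference of the 10 genes. The Undiff libraries nevertheless held 133 and 86 counts of Igfbp5, well above the floor.

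Igfbp4, which encodes an inhibitory binding protein that the protease PAPP-A cleaves, had normalized counts of 1132 and 944 in Undiff and 29249 and 27710 in Day4. This was a 27.4-fold difference of the means (log2 fold change 4.77, SE 0.07). Igfbp3, the main carrier of IGFs in serum, was already expressed in Undiff at 3861 and 3465 and reached 9997 and 10177 in Day4, a 2.75-fold difference (log2 fold change 1.46, SE 0.05). Igfbp7 had 173 and 205 normalized counts in Day4, against 65.7 and 52.6 in Undiff (log2 fold change 1.68, SE 0.17). For each of the 5 genes the libraries of one state lay wholly on one side of those of the other. The annotated exons of Igfbp7 share 85 of their 1209 bases with Polr2b on the opposite strand. Without strand in the counting, fragments on those shared bases cannot be assigned to either gene. The methods name only the Direct RNA libraries as counted by strand on genes.

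Igfbp2 and Igfbp5 are neighbours on chromosome 1 and had the most unlike differences of the group. Igfbp2 lies at chr1:72824503-72852474 on the plus strand and Igfbp5 at chr1:72857932-72874884 on the minus strand of GRCm38, so the genes point towards each other across 5457 bases and their promoters are at the far ends. The 250 bases upstream of each RefSeq start (GRCm38.p6) are printed to show 2 promoters at the ends of 1 gene pair, read in the direction of transcription, with CG dinucleotides in capitals.
Igfbp2, chr1:72824230-72824479 (+): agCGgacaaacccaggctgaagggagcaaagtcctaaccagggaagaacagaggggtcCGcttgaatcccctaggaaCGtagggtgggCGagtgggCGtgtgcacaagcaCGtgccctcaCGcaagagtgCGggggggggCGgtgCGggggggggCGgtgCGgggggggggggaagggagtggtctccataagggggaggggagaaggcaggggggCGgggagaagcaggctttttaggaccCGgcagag
Igfbp5, chr1:72874866-72875115 (−): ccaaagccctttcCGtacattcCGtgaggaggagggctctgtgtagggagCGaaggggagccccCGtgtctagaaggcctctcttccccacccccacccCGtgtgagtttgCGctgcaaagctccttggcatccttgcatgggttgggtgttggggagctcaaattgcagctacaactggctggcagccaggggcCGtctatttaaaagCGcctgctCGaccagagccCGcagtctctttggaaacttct
The window held 14 CG dinucleotides for Igfbp2 and 10 for Igfbp5, where the median over all RefSeq promoters was 6. A second RefSeq start of Igfbp2 had 11. Other members ranged more widely, from 5 for Igf1 to 40 for Igf2bp2 and 42 for Igf1r. RefSeq promoters were matched for 9 of the 10 genes. No promoter was matched for Igf2bp1, so its promoter was not searched for motifs.

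The letters of 4 short motifs were searched on both strands in the 300-base RefSeq promoter windows. The TATA box TATAAA was found in Igfbp4 and in 13.6% of all 32851 promoters. The nuclear receptor hexamer AGGTCA was found in Igf1 and Igf1r and in 16.3% of promoters. The GC box GGGCGG was found in Igf1r, Igf2bp2, Igfbp2 and Igfbp7 and in 35.7% of promoters, and the E box CACGTG in Igf2bp3 and Igfbp2 and in 7.15%. These are counts of letters in a window and not of bound sites.

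The mRNA-binding protein genes also differed in opposite directions. Igf2bp1 had normalized counts of 21102 and 22600 in Undiff and 5150 and 5526 in Day4, so that the Undiff mean was 4.09-fold the Day4 mean (log2 fold change −2.03, SE 0.05). Igf2bp2, which unlike the other two is also widely expressed in adult tissues, had 4328 and 4335 in Undiff and 9650 and 10229 in Day4 (log2 fold change 1.20, SE 0.04). Igf2bp3 had 3527 and 3402 in Undiff and 6020 and 6166 in Day4 (log2 fold change 0.81, SE 0.04), which was below the fold threshold of a DEG. None of the 3 genes had overlapping libraries between the states. Igf2bp1 carried the most let-7 matches of the group and was the only one of the 3 with lower counts in Day4, while Igf2bp2 and Igf2bp3 carried 1 match each and had higher counts. With 3 genes, a relation between matches and levels was not tested. Igf2bp3 shares 1529 exonic bases with Malsu1 on the opposite strand, whose normalized count was 720 ± 34.6 in Undiff and 474 ± 5.29 in Day4 (SD, n = 2).

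Past the DEG thresholds were 8 of the 10 genes, against 42.8% of the 19891 genes tested. Higher in Day4 were 6 of them (Igf1, Igfbp3, Igfbp4, Igfbp5, Igfbp7 and Igf2bp2), against 22.2% of all genes, and lower were 2 (Igfbp2 and Igf2bp1), against 20.6%. The median log2 fold change was 1.33 over the 10 genes and −0.03 over all genes. Because the genes were selected on this contrast, the counts are given as a description and nothing is read from them.

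**Figure D2:**
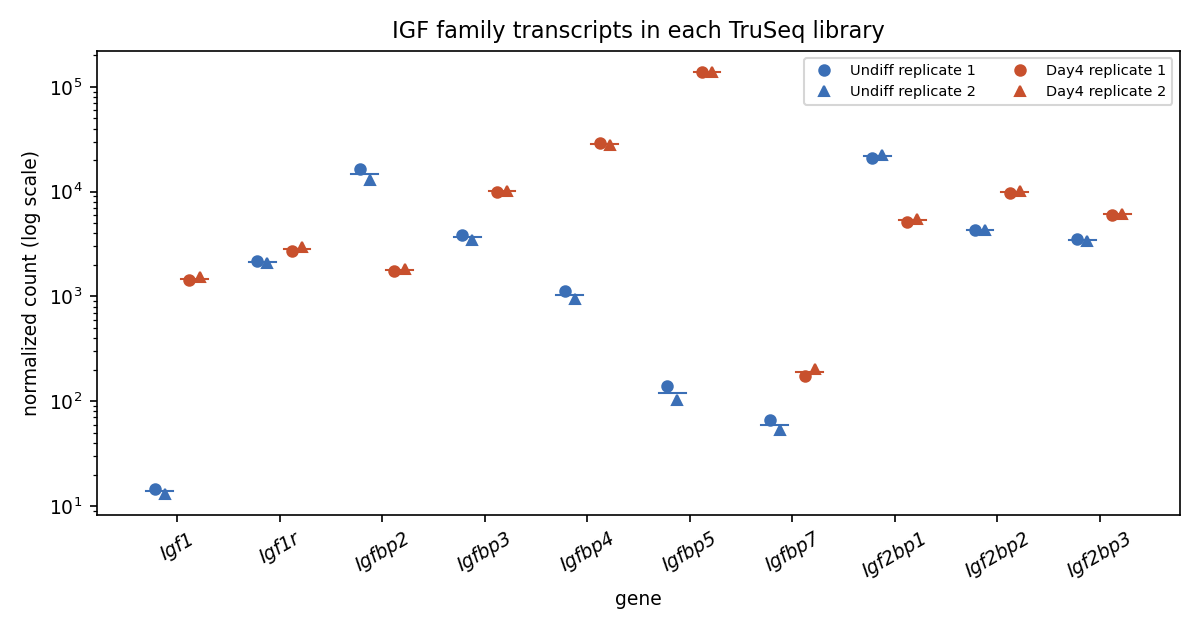
Normalized counts of the 10 genes in each library on a log axis, with circles for replicate 1, triangles for replicate 2 and a line at the mean of each state. Igfbp2 and Igf2bp1 are lower in both Day4 libraries, the other 8 genes are higher in both, and no gene has overlapping states.

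**Figure D3:**
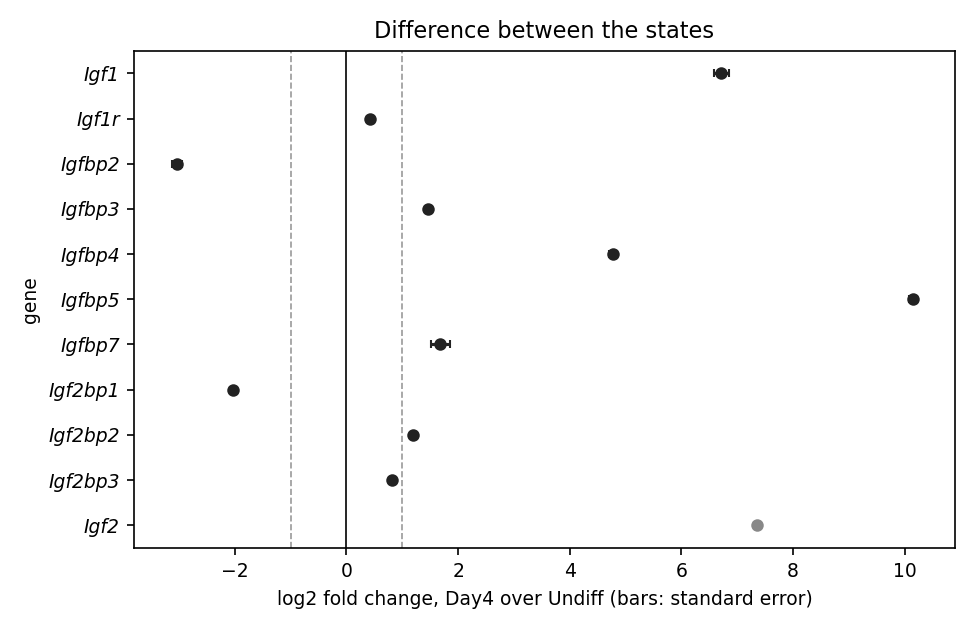
Log2 fold change of Day4 over Undiff for the 10 genes and Igf2 (grey), with bars for the standard error and dashed lines at the DEG threshold of 1 in either direction. Values run from −3.04 for Igfbp2 to 10.16 for Igfbp5, and only Igf1r and Igf2bp3 lie between the dashed lines.

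Replicates were close relative to these differences. In Day4 the coefficient of variation ranged from 0.138% for Igfbp5 to 11.8% for Igfbp7, and in Undiff from 0.118% for Igf2bp2 to 20.9% for Igfbp5. Over all genes averaging 1000 or more normalized counts in the 4 libraries, the median was 2.99% in Undiff and 2.01% in Day4, and the upper decile began at 8.12% in Undiff and 5.42% in Day4. Igfbp2 (16.5%) and Igfbp4 (12.8%) were above that point in Undiff, and Igf1r (6.04%) was in Day4. Igfbp5 (20.9% in Undiff, on 133 and 86 counts) averaged 121 normalized counts in Undiff. It is in this set only through its Day4 level, so its Undiff value is not ranked against that point. Igfbp7, which averaged fewer normalized counts, had 15.5% in Undiff and 11.8% in Day4. In Undiff the normalized counts of all 5 binding protein genes were higher in replicate 1 than in replicate 2, as was the case for 51.2% of 16472 genes averaging 5 or more. Summed marker levels differed between the Undiff replicates in both directions. The fibroblast and mesenchyme sum was 1574 CPM in replicate 1 and 1478 in replicate 2, most of it Fn1. The endothelial sum was 177 and 175 CPM. The ESC (4899 and 4952), endoderm (64.9 and 73.2) and neural (332 and 340) sums were lower in replicate 1. Among the 5 binding protein genes in Day4, only Igfbp4 had the higher value in replicate 1.

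Levels were compared between genes as CPM per kb of exon. In Undiff the order was Igfbp2 at 213.9 ± 35.2, Igf2bp1 at 60.3 ± 2.92, Igfbp3 at 31.3 ± 2.39, Igf2bp2 at 15.6 ± 0.018 and Igf2bp3 at 11.3 ± 0.291 CPM per kb (SD, n = 2). Below these were Igfbp4 at 6.28 ± 0.803, Igf1r at 3.40 ± 0.064, Igfbp7 at 1.31 ± 0.203, Igfbp5 at 0.537 ± 0.112 and Igf1 at 0.037 ± 0.0027 CPM per kb. No neighbours in this order had overlapping libraries. In Day4 the order began with Igfbp5 at 618.9 ± 0.856, Igfbp4 at 172.3 ± 6.58 and Igfbp3 at 86.1 ± 1.09 CPM per kb. Igf2bp2 at 35.9 ± 1.48, Igfbp2 at 26.0 ± 0.829, Igf2bp3 at 19.9 ± 0.338 and Igf2bp1 at 14.7 ± 0.733 CPM per kb came next. Igf1r at 4.53 ± 0.274, Igfbp7 at 4.18 ± 0.494 and Igf1 at 3.98 ± 0.166 CPM per kb closed the order, and neither Igf1r and Igfbp7 nor Igfbp7 and Igf1 differed beyond their libraries' ranges. Igfbp5 thus stood ninth of the 10 genes in Undiff and first in Day4. With the length of the longest transcript instead, Igfbp2 and Igf2bp3 exchanged places in Day4, as did Igfbp7 and Igf1.

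The make-up of both protein groups differed between the states. The 3 mRNA-binding protein genes summed to 87.3 ± 2.65 CPM per kb in Undiff and 70.5 ± 2.55 in Day4 (SD, n = 2). Igf2bp1 made up 69.1% ± 1.25 of that level in Undiff and 20.9% ± 0.285 in Day4. Igf2bp2 went the other way, from 17.9% ± 0.523 to 50.8% ± 0.258, and Igf2bp3 from 13.0% ± 0.729 to 28.3% ± 0.543. The most abundant transcript of the group was therefore Igf2bp1 in both Undiff libraries and Igf2bp2 in both Day4 libraries.

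The 5 binding protein genes summed to 253.3 ± 38.7 CPM per kb in Undiff and 907.4 ± 3.31 in Day4. Igfbp2 made up 84.4% ± 1.00 of the Undiff level and 2.86% ± 0.102 of the Day4 level. Igfbp5 made up 0.211% ± 0.012 in Undiff and 68.2% ± 0.343 in Day4, and Igfbp4 made up 2.44% and 2.53% in the Undiff libraries and 19.4% and 18.5% in the Day4 libraries. The share of Igfbp3 was 12.4% ± 0.955 in Undiff and 9.49% ± 0.155 in Day4, without overlap of the libraries. The summed level of the ligand transcripts Igf1 and Igf2 was 4.87 and 4.68 CPM per kb in Undiff and 813.7 and 745.6 in Day4. The ratio of binding protein to ligand transcripts was thus 57.7 and 48.3 in the Undiff libraries and 1.12 and 1.21 in the Day4 libraries. Igf2 makes up nearly all of the ligand level in Day4, so the ratio largely restates the Igf2 level on which the genes were selected and is a description only. It is a ratio of RNA levels and says nothing of secreted protein.

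**Figure D4:**
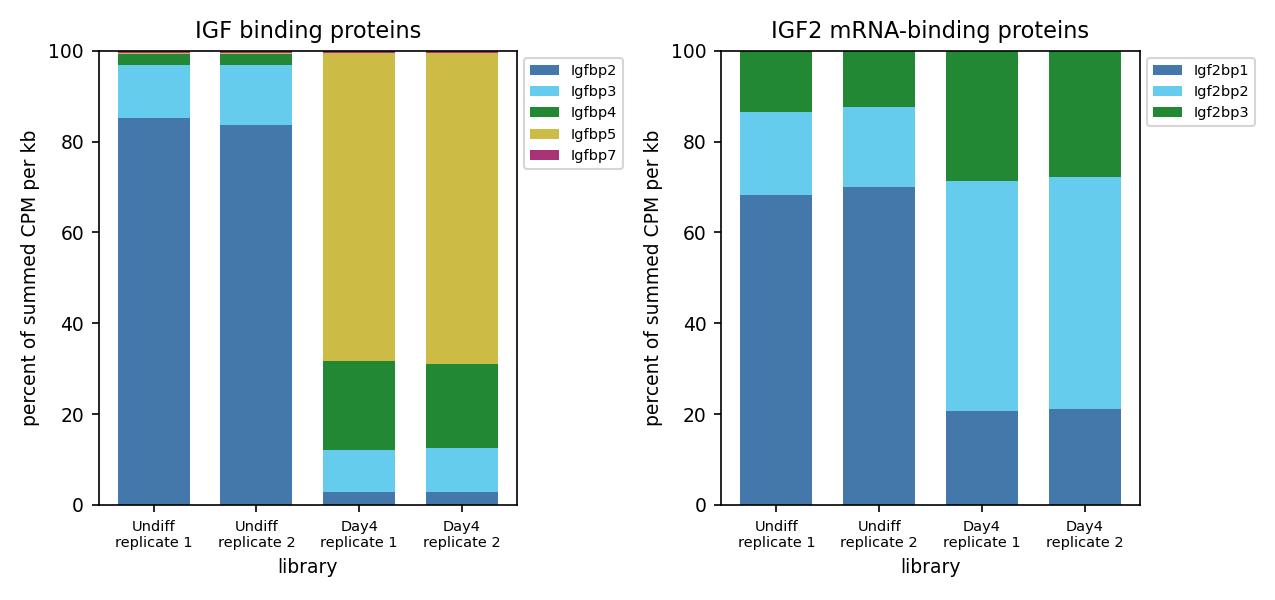
Percent of the summed CPM per kb taken by each gene within the binding proteins (left) and the mRNA-binding proteins (right), one bar per library. Igfbp2 fills 84.4% of the Undiff binding protein level on average and Igfbp5 68.2% of that in Day4, while Igf2bp1 is largest in Undiff and Igf2bp2 in Day4.

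The markers of other cell types also differed between the states, in both directions. The summed level of the 12 fibroblast and mesenchyme markers was 1574 and 1478 CPM in Undiff and 2339 and 2202 in Day4. Fn1 alone made up 92.6% and 92.9% of the Undiff sums, and the other 11 markers summed to 116 and 105 CPM in Undiff and 2053 and 1896 in Day4. Of these markers Fn1 and Thy1 were lower in Day4, Fbln1 was no DEG, and the other 9 were higher, Lum being at the floor in Undiff. The collagen gene Col3a1 had 77.1 and 57.4 normalized counts in Undiff and 40193 and 36401 in Day4. Endothelial markers summed to 177 and 175 CPM in Undiff and to 339 and 341 in Day4, with Emcn at the floor in Undiff. Pecam1, the largest part of the Undiff sums, fell from 5264 and 5138 normalized counts to 2269 and 2279. Tek (log2 fold change −1.02) also fell, and the other 6 rose. Endoderm markers summed to 64.9 and 73.2 CPM in Undiff and to 659 and 652 in Day4, with Afp at 0 in both Undiff libraries. The Day4 sums were largely Gata4 (9528 and 9714 normalized counts) and Gata6 (10571 and 10070). Afp had only 81 and 50 counts in Day4. Cubn (log2 fold change −3.66) and Amn (−4.72) fell, Apob was not a DEG, and the other 9 rose. Neural markers summed to 332 and 340 CPM in Undiff and to 172 and 184 in Day4, with 3 of the 10 higher and 4 lower. Stmn2, the largest part of the Undiff sums, fell from 7262 and 7572 normalized counts to 922 and 829. Dcx had 2 and 1 counts in Undiff and 961 and 1352 in Day4. The part of these cell types in the levels of the IGF genes was not tested.

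The genes nearest in pattern were found for the most abundant gene of each role, as the Euclidean distance of log2 CPM over the 4 libraries among 19890 genes. The distance depends on the level as well as on the difference between states. For Igfbp5 they were Ecm1 at a distance of 1.54, Col3a1 at 2.88 and Dlk1 at 4.02. Ecm1, an extracellular matrix protein gene, had normalized counts of 246 and 200 in Undiff and 92384 and 86291 in Day4. For Igf2bp1 they were Nsun2 at 0.10, Ftsj3 at 0.31 and Rif1 at 0.33, and for Igf1r they were Zfx at 0.06, Fam210a at 0.07 and Osbpl9 at 0.08. These distances are over 2 replicates of 2 states that share their libraries.

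The other genes of the pathway were described from lists of 76 genes, of which 73 had a count and could be tested. The lists were chosen with earlier results of these data known. Their DEG calls are therefore given as a description. Igf2, the fetal growth factor, is on 2 of the lists, and because the genes were selected on its level in this contrast it is described without a test and left out of the count that follows. Of the other 72 genes, 20 rose (27.8%), 13 fell (18.1%) and 39 were not DEGs, against 22.2% higher and 20.6% lower over all genes (edgeR quasi-likelihood test, Benjamini-Hochberg adjusted p over all genes). Their median log2 fold change was −0.02, against −0.03 over all genes. Igf2 had 1035 and 996 normalized counts in Undiff and 173497 and 158863 in Day4 (log2 fold change 7.35, SE 0.06). The insulin receptor Insr (0.97), the insulin receptor-related receptor Insrr (0.54) and Igf2r (−0.28), which clears IGF2 from the cell surface, were not DEGs. Ins1 and Ins2 had no count in any library.

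Of 9 other binding proteins, carriers and proteolysis genes, 4 rose (44.4%), 4 fell (44.4%) and 1 was not a DEG, against 22.2% and 20.6% of all genes, with a median log2 fold change of 1.08 when genes at the floor were set to their bound. Pappa2, which encodes a protease that cleaves IGFBP3 and IGFBP5, had no count in Undiff and 368 and 438 counts in Day4, at least 107.3-fold higher. Igfbp6, an IGF2-preferring binding protein, rose from 21.9 and 20.3 normalized counts to 894 and 726 (log2 fold change 5.24, SE 0.19). Pappa, encoding the protease of IGFBP4, rose by a log2 fold change of 2.78 and Stc1, an inhibitor of that protease, by 1.56. Igfals, a subunit of the serum IGF complex, had log2 fold change −4.71 and the serine protease Htra1 −3.86, and Igfbpl1 (−2.68) and Stc2 (−1.49) also fell. Igfbp1, the convergent neighbour of Igfbp3 on chromosome 11 at 3539 bases, had 0 and 1 counts in Undiff and 7 and 9 in Day4, too few for a DEG.

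Of 13 IGF1R adaptors and inhibitors, 4 rose (30.8%), 2 fell (15.4%) and 7 were not DEGs, against 22.2% and 20.6% of all genes, with a median of 0.31. DESeq2 called 4 higher and 3 lower. Irs1, the docking protein that links the receptor to PI3K, rose from 113 and 90.9 normalized counts to 1872 and 1859 (log2 fold change 4.19, SE 0.09). Grb10, an adaptor that restrains the receptor, rose by 2.61 (SE 0.04), and Irs2 (2.17) and Grb14 (1.27) also rose. The cytokine signalling inhibitor Socs3 (−1.65) and the docking protein Gab1 (−1.02) fell.

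Of 21 genes of PI3K, AKT, mTOR and FOXO, 9 rose (42.9%), 2 fell (9.52%) and 10 were not DEGs, against 22.2% and 20.6% of all genes, with a median of 0.49. DESeq2 gave the same counts. The regulatory subunit Pik3r1 rose by 2.78 (SE 0.06) on the log2 scale. The catalytic subunits Pik3cd (−3.52, SE 0.09) and Pik3cb (−2.56, SE 0.07) fell, whereas Pik3ca, another catalytic subunit, was not a DEG at 0.90. The 3 regulatory subunit genes Pik3r1, Pik3r2 and Pik3r3 were all among the 9 that rose.

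Around the mRNA-binding proteins, 0 of 9 partner genes rose, 3 fell (33.3%) and 6 were not DEGs, against 22.2% and 20.6% of all genes, with a median of −0.55, by edgeR's quasi-likelihood test. At the DEG thresholds DESeq2 also called 0 higher and 3 lower. At an unadjusted p under 0.05 and no minimum fold change, edgeR had 0 of the 9 higher and 8 lower. These include a log2 fold change as small as −0.20 for Elavl1. The share of all genes at that looser threshold was not counted, so nothing is read from these counts. Matr3 (0.02) was the only partner with a positive log2 fold change. Lin28a, an RNA-binding protein that blocks the maturation of let-7, fell from 13537 and 13932 normalized counts to 146 and 156 (log2 fold change −6.50, SE 0.06). Lin28b (−1.53, SE 0.06) and the poly(A)-binding protein gene Pabpc1 (−1.31, SE 0.04) also fell. Of 10 writers, erasers and readers of N6-methyladenosine, a mark that the IGF2 mRNA-binding proteins read, only the demethylase gene Fto passed the thresholds, at 1.38 (SE 0.05), by edgeR and by DESeq2. Over all genes, edgeR had 22.2% higher and 20.6% lower at those thresholds. At an unadjusted p under 0.05 in edgeR, with no minimum fold change, 3 of the 10 were higher and 5 lower. These include log2 fold changes as small as 0.14 for Alkbh5 and −0.14 for Ythdf1. The share of all genes was not counted for this looser threshold, so nothing is read from the 3 and 5 either. Of the textbook mRNA targets beside Igf2, the noncoding RNA H19 (5.45, SE 0.04) and the chromatin protein gene Hmga2 (3.97, SE 0.05) rose, Myc (−1.49, SE 0.08) fell, and Actb, Cd44 and Btrc were not DEGs. The targets thus moved in both directions, and the counts do not measure whether a protein bound them.

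**Figure D5:**
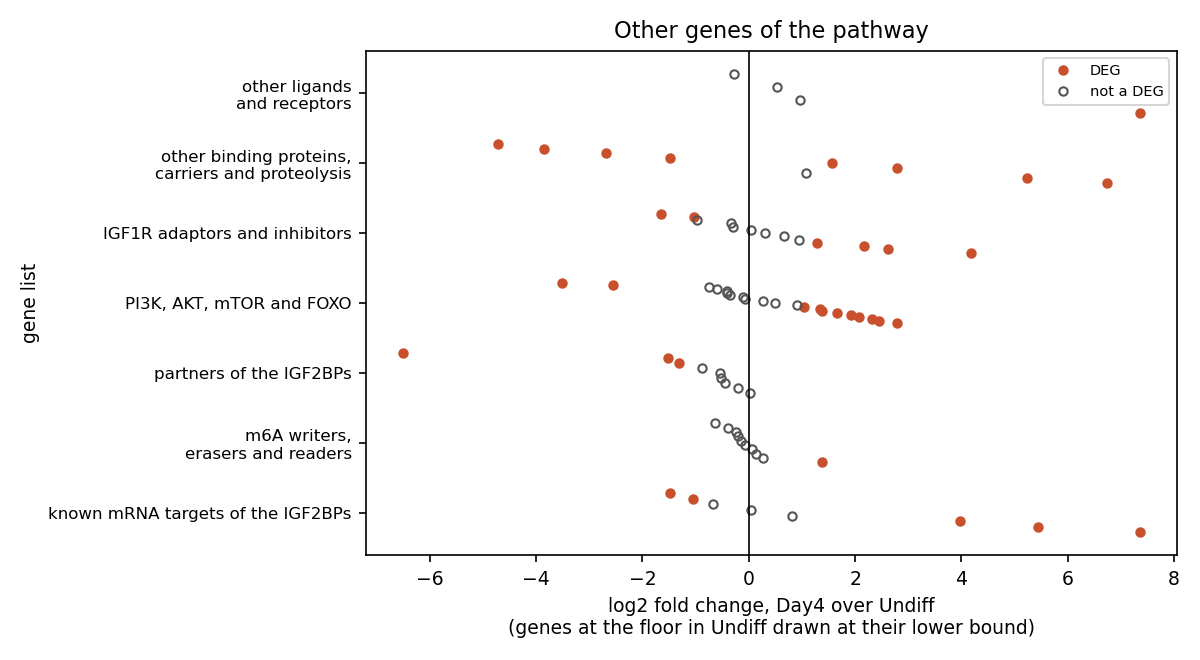
Log2 fold change of Day4 over Undiff for the tested genes of 7 lists of the pathway, filled where the gene is a DEG and open where it is not. The partners of the mRNA-binding proteins (IGF2BPs) hold 3 DEGs, all lower, and the PI3K, AKT, mTOR and FOXO genes hold 9 higher and 2 lower, where 22.2% of all genes are higher and 20.6% lower. Igf2, at 7.35, is drawn in 2 lists.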

How the data were processed

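Raw counts per gene symbol were deposited for 4 TruSeq libraries. The authors used cutadapt for trimming, STAR 2.4.2a for alignment to mm10 and htseq-count for the deposited counts. The methods describe poly(A) selection, while the labels also name a strand-specific total RNA kit with RiboZero rRNA depletion. For counting on genes the methods name only the Direct RNA libraries as strand-specific, and no option is written out for TruSeq. Fragments on no gene (7.50 to 13.2% of counts) and on several genes were left out.

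Counts of the 19891 genes with a count were TMM-normalized and tested with edgeR 4.0.16 (glmQLFit, glmQLFTest) in R 4.3.3, with Benjamini-Hochberg adjustment. The study's DEG thresholds were kept (adjusted p-value 0.05 or less, log2 fold change 1 or more in size, 5 or more normalized counts on average). The standard error was the log2 fold change divided by the square root of F. With 2 against 2 libraries an exact permutation test cannot go below p = 0.333, so none was used. In simulated data of this comparison (19508 genes) all 100 genes changed by a log2 fold change of 2 and all 100 changed by 3 were recovered, and 1 unchanged gene was called. Every simulated gene had the same biological coefficient of variation, 3.66%, and 200 genes were changed, where 42.8% were called in the data. Igfbp2 varied by 16.5% between the Undiff libraries, and recovery at such a spread was not simulated. Depth was 32099074 to 47730944 counts per library.

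The members and gene lists were chosen with earlier results of these data known. Named were all members, Igf2, up to 2 of the highest and lowest DEGs of each list, genes of counts of 5 or fewer, and the 3 genes nearest in pattern to the most abundant member of each role. Pik3ca, single marker genes and the listed genes that were not DEGs were named after their values were seen. Gene positions and 3′ UTRs came from GENCODE vM21 (GRCm38). Protein sequences were not compared here, and single listed genes that the rule would name are not reported here. Alternatives were DESeq2 1.42.0 with and without shrinkage, other scalings, filters, thinned counts, a replicate block, each library left out and other gene lengths.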

Additional observations from a re-analysis of the deposited data

How the results depend on the processing

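Under all 12 alternatives to the test, 8 of the 10 IGF genes passed the DEG thresholds, 6 higher and 2 lower in Day4, and no log2 fold change turned direction. In 4 of these alternatives 1 library was left out, so that a state had a single library and was assumed to vary like the other, and none is an independent sample. Over all genes the number of DEGs was 8521, between 8306 and 8410 with 1 library left out and between 8114 (DESeq2) and 9256 (no minimum count) otherwise. Of the other pathway genes, Igf2 included, 34 were DEGs, and 33 to 35 under the alternatives. Both states use the replicate numbers 1 and 2, but the deviations of same-numbered libraries correlated at −0.0128 over 16472 genes. Taking the replicate as a block gave 8515 DEGs and changed no count of the IGF genes. Without Day4 replicate 2 the log2 fold change of Igf1r was 0.32, that of Igf2bp2 1.13 and that of Igf2bp3 0.77, and with library totals that of Igf2bp2 was 1.27 and that of Igf2bp3 0.88. The shares moved with the gene length used. With the longest transcript, Igfbp2 took 85.9% and Igf2bp1 60.9% in Undiff, and Igfbp5 63.8% and Igf2bp2 49.6% in Day4. With counts not divided by length, these shares were 75.1%, 73.7%, 77.4% and 46.5%. Only 2 libraries per state were available, and the low genes Igf1 and Igfbp7 rest on between 11 and 63 counts in Undiff.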
